A study of Schizosaccharomyces pombe with 16 samples.

Results

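The 4 genes described here, atg1, atg11, atg13 and atg17, encode the Atg1 protein kinase of fission yeast (Schizosaccharomyces pombe) and its partners, and were taken by gene symbol from a table of read counts. They are 4 of the 7014 genes in that table, and all 4 were among the 6170 genes with enough reads to be tested. Total mRNA and mRNA from polysome fractions (mRNAs carrying several ribosomes, separated on sucrose gradients) had been sequenced from WT cells (strain 972 h-) and from eIF2α.S52A cells (eIF2alfa.S52A:Ura4 ura4-D18 h-). In the mutant the serine 52 of eIF2α that the eIF2 kinases phosphorylate is replaced with alanine, and the strain also differs from WT in its ura4 marker, so that the effects of the marker and of the substitution cannot be told apart. Both strains grew in rich YES medium at 30 °C. They were sampled in exponential phase (0 h) and after another 6 h, when the cultures began to enter stationary phase. Strain, time and fraction make 8 groups of 2 replicates each, 16 libraries in all, and the labels place replicate 1 and replicate 2 of every group in separate experiments. Each library is an average over a culture, so fewer cells with an mRNA and less of that mRNA per cell cannot be told apart. The authors' analysis asked which mRNAs are translated more when nutrients run down, and whether this needs phosphorylation of eIF2α.

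Autophagy delivers cytoplasm and organelles to the vacuole inside double-membrane vesicles, the autophagosomes, and is used by yeast cells to recycle amino acids when nutrients are scarce. The Atg1 complex acts at its first step: when the TORC1 kinase is inactive, Atg1 is activated and the complex recruits the proteins that build the autophagosome membrane. Atg13 is the regulatory subunit that TORC1 phosphorylates, Atg17 is a scaffold, Atg101 is a partner of Atg13, and Atg11, known in budding yeast as a scaffold for selective autophagy, activates Atg1 in fission yeast.

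The libraries held between 11279417 and 20522997 counts. No member had fewer than 58 counts in any library. Levels are given as CPM, counts over the TMM-scaled library size (edgeR), and changes as log2 differences ± SE from edgeR's quasi-likelihood test. A call means an adjusted p (Benjamini-Hochberg, all 6170 genes) below 0.05. Of the mutant's 6 h libraries, replicate 2 stood apart from replicate 1: mRNAs of the 150 cytosolic ribosomal protein genes took 45.9% against 31.1% of polysome counts, and 22.5% against 15.6% of total mRNA counts. In WT cells at 6 h these shares were 27.2% to 30.1% and 12.7% to 13.3%, and at 0 h they were higher in both strains (23.5% to 25.1% of total mRNA, 46.3% to 53.4% of polysomes). Results for eIF2α.S52A cells at 6 h are therefore also given without both libraries of replicate 2, an alternative chosen after the data were seen.

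The 4 mRNAs are of similar length in the RefSeq annotation of assembly ASM294v3 (the authors aligned to ASM294v2, so no coordinates are given). They measure 2788 nucleotides for atg1 (SPCC63.08c, chromosome III), 3104 for atg11 (SPAC7D4.04, chromosome I), 2797 for atg13 (SPAC4F10.07c, chromosome I) and 2732 for atg17 (SPAC10F6.11c, chromosome I). The encoded proteins are less alike in size, with 830, 926, 758 and 411 amino acids in the same order. atg17 thus has the shortest coding sequence and a 3′ UTR of 1326 nucleotides, longer than its coding sequence of 1236. Upstream ATGs in the annotated leader, which can hold back or redirect initiation in mRNAs that respond to eIF2, numbered 1 in atg1, 3 in atg11, 2 in atg13 and 0 in atg17. Of the 4511 coding genes with an annotated leader 36.3% have at least 1.

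Per kilobase of mRNA, the order of the members changed with time in WT cells. In total mRNA at 0 h atg11 was the highest at 32.3 ± 6.34 CPM per kb (mean ± SD, n = 2 for this and all other group values). It was followed by atg1 at 15.7 ± 2.43, atg17 at 14.2 ± 0.372 and atg13 at 11.9 ± 0.649, where atg1 and atg17 differed by less than their spread. At 6 h atg17 was the highest at 48.8 ± 3.83 CPM per kb. The other 3 members lay close together in total mRNA at 6 h: atg11 at 30.0 ± 3.35, atg13 at 25.45 ± 5.04 and atg1 at 25.15 ± 4.01 differed by less than their summed spreads. In WT polysomes at 6 h atg17 had 64.7 ± 3.65 CPM per kb, against 20.5 ± 2.81 for atg11, 19.5 ± 0.675 for atg1 and 10.7 ± 1.55 for atg13. Only atg11 and atg1 were within their spread of each other in that group.

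**Figure D1:**
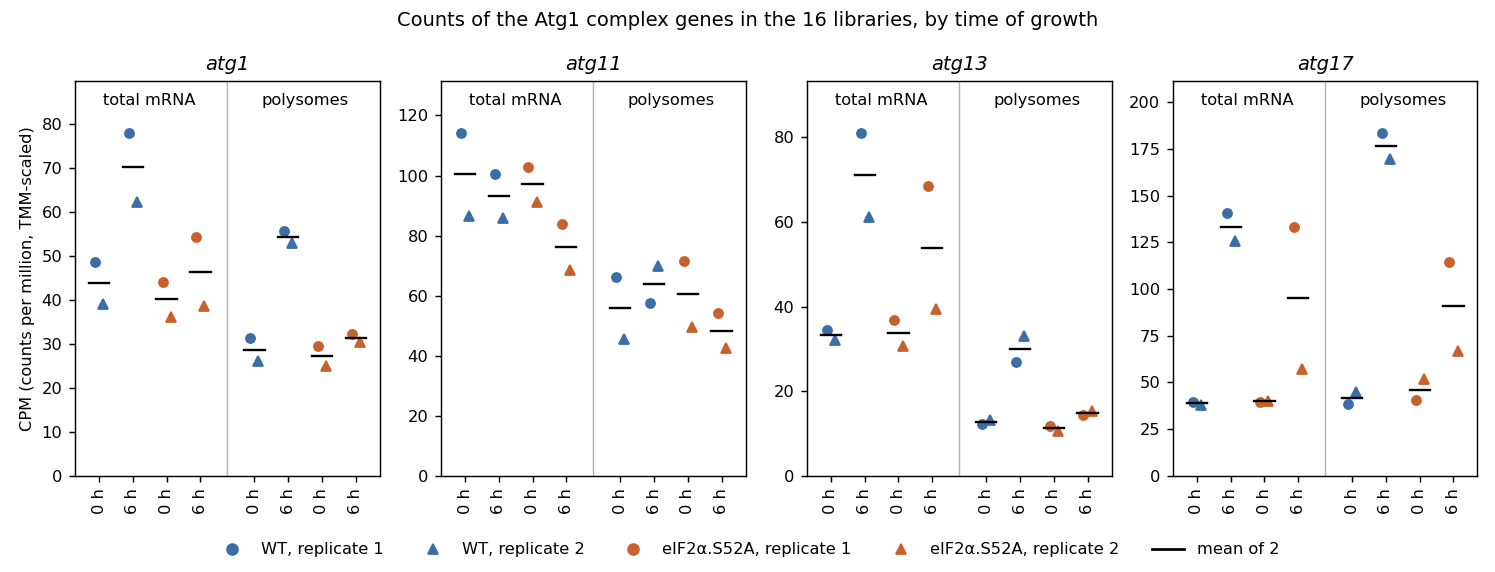
CPM of atg1, atg11, atg13 and atg17 in each of the 16 libraries, by fraction, strain (colour) and time, with a black line at the mean of the 2 replicates (circle, replicate 1 and triangle, replicate 2). The WT polysome libraries at 6 h are the highest polysome libraries for atg1, atg13 and atg17, while for atg17 the mutant's total mRNA libraries at 6 h are far apart (133.2 and 57.4 CPM).

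atg1, the gene of the kinase itself, rose 1.90-fold on WT polysomes between 0 h and 6 h. In WT polysome libraries it stood at 31.3 and 26.1 CPM at 0 h and at 55.7 and 53.0 CPM at 6 h. In eIF2α.S52A polysomes it stood at 29.6 and 25.02 CPM at 0 h and at 32.3 and 30.5 CPM at 6 h. Both WT libraries at 6 h thus lay above every other polysome library, and in the mutant the gap between the 0 h and 6 h libraries was smaller than the gap between the 2 libraries at 0 h. The log2 change was 0.93 ± 0.21 in WT polysomes (adjusted p = 0.0142) and 0.21 ± 0.22 in mutant polysomes (adjusted p = 0.613).

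In total mRNA of WT cells atg1 stood at 48.6 and 39.0 CPM at 0 h and at 78.0 and 62.2 CPM at 6 h. In eIF2α.S52A cells it stood at 44.2 and 36.2 CPM and at 54.3 and 38.5 CPM. The WT values did not overlap between times and those of the mutant did. The log2 change of total mRNA was 0.68 ± 0.21 in WT cells, which missed the threshold (adjusted p = 0.0537) and passed it with the replicate block (adjusted p = 0.00716), and 0.21 ± 0.21 in the mutant (adjusted p = 0.637).

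atg13, the gene of the regulatory subunit under TORC1, had the lowest CPM per kb of the 4 members on polysomes in every group, and rose 2.34-fold there in WT cells. Its WT polysome libraries had 12.3 and 13.3 CPM at 0 h and 26.9 and 33.0 CPM at 6 h. Those of the mutant had 11.8 and 10.7 CPM at 0 h and 14.4 and 15.4 CPM at 6 h. Values at 6 h lay above those at 0 h in both strains, and both mutant libraries at 6 h lay nearer to the 0 h libraries than to the WT libraries at 6 h. The log2 change was 1.22 ± 0.26 in WT polysomes (adjusted p = 0.00984) and 0.41 ± 0.27 in the mutant (adjusted p = 0.382).

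In total mRNA atg13 had 34.6 and 32.0 CPM at 0 h in WT cells and 81.2 and 61.2 CPM at 6 h, a rise of 1.10 ± 0.24 on the log2 scale (adjusted p = 0.0179). In the mutant it had 36.9 and 30.8 CPM at 0 h and 68.5 and 39.4 CPM at 6 h, a log2 change of 0.67 ± 0.24 (adjusted p = 0.171). The 2 mutant libraries at 6 h differed 1.74-fold. Without both replicate 2 libraries of that condition, the change in mutant total mRNA was 1.02 (adjusted p = 0.0156). Without replicate 1 of mutant total mRNA at 6 h it was 0.22 (adjusted p = 0.871).

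atg17, the gene of the scaffold, had the largest change of the 4 in every comparison of 6 h with 0 h in polysomes or total mRNA. On WT polysomes it rose 4.22-fold, from 38.6 and 45.0 CPM to 183.7 and 169.6 CPM. In the mutant it had 40.6 and 51.6 CPM on polysomes at 0 h and 114.5 and 67.1 CPM at 6 h. All mutant values at 6 h lay above the 0 h values and below both WT values at 6 h. The log2 change was 2.08 ± 0.35 in WT polysomes (adjusted p = 0.00399), higher than that of 96.2% of the genes tested, and 0.97 ± 0.34 in the mutant (adjusted p = 0.101). Without both replicate 2 libraries of the mutant at 6 h the mutant's change was 1.31 and passed the threshold (adjusted p = 0.00142), whereas without the replicate 1 polysome library of the mutant at 6 h it was 0.54 (adjusted p = 0.510).

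In total mRNA atg17 reached a similar level in both strains at 6 h in replicate 1, but not in replicate 2. WT libraries had 39.6 and 38.2 CPM at 0 h and 140.6 and 125.8 CPM at 6 h, a log2 rise of 1.78 ± 0.34 (adjusted p = 0.0115). Mutant libraries had 39.6 and 40.2 CPM at 0 h and 133.2 and 57.4 CPM at 6 h, a log2 change of 1.26 ± 0.34 (adjusted p = 0.0673). The first mutant library at 6 h lay between the WT ones and the second lay below both, 2.32-fold under the first. The mutant's change passed the threshold with the replicate block (adjusted p = 0.0376), with DESeq2 (adjusted p = 0.0136), and without both replicate 2 libraries, where it was 1.74 (adjusted p = 0.0006). Without replicate 1 of mutant total mRNA at 6 h it was 0.53 (adjusted p = 0.648).

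For atg11, the gene of the Atg1 activator, no change over time passed the test in either strain or fraction. Its WT polysome libraries had 66.4 and 45.5 CPM at 0 h and 57.6 and 69.9 CPM at 6 h. Those of the mutant had 71.5 and 49.4 CPM at 0 h and 54.2 and 42.5 CPM at 6 h. Times overlapped in polysomes of both strains, and replicate 1 and replicate 2 of WT polysomes moved in opposite directions, by -0.21 and 0.62 on the log2 scale. The fitted changes were 0.19 ± 0.25 in WT polysomes (adjusted p = 0.624) and -0.32 ± 0.25 in mutant polysomes (adjusted p = 0.481), with 95% intervals of -0.35 to 0.74 and -0.87 to 0.23. In total mRNA the WT libraries had 114.3 and 86.5 CPM at 0 h and 100.5 and 85.8 CPM at 6 h, and the mutant's had 103 and 91.2 CPM and then 83.7 and 68.6 CPM. Only in total mRNA of the mutant were the times apart, with both 6 h libraries lower, and neither total mRNA change passed the test (-0.11 ± 0.25 and -0.35 ± 0.25, adjusted p = 0.822 and 0.488). A WT rise of atg11 as large as that of atg13 lay outside both of its WT intervals, the higher bound in total mRNA being 0.43.

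atg101, the other gene of the complex, has a short mRNA (635 nucleotides) and low CPM. It had 11.1 ± 1.14 CPM in WT total mRNA at 0 h and 17.04 ± 1.37 at 6 h, and 6.29 ± 0.0593 and 16.96 ± 3.86 in the mutant. Its log2 changes had wide errors and passed no test: 1.13 ± 0.58 and 1.18 ± 0.62 in WT and mutant polysomes (adjusted p = 0.196 and 0.269), and 0.62 ± 0.55 and 1.43 ± 0.57 in total mRNA (adjusted p = 0.500 and 0.209). The change in the mutant minus that in WT was 0.06 ± 0.84 in polysomes and 0.81 ± 0.78 in total mRNA, and neither passed.

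**Figure D2:**
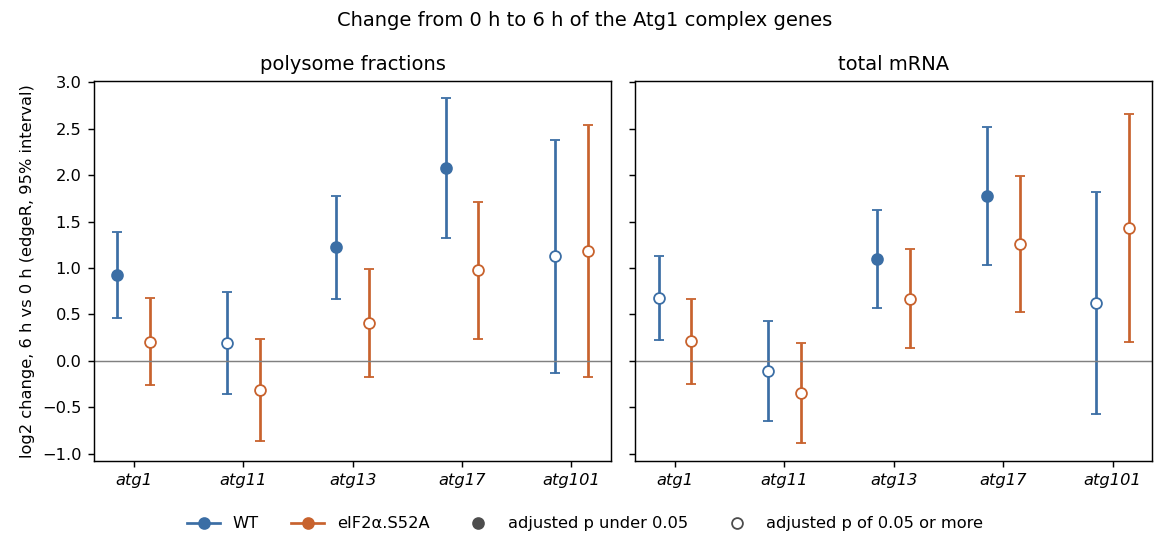
Log2 change from 0 h to 6 h of the 4 members and atg101 in polysome fractions (left) and total mRNA (right), in WT (blue) and eIF2α.S52A cells (orange), with 95% intervals from edgeR. Filled symbols are changes with an adjusted p under 0.05: atg1, atg13 and atg17 in WT polysomes and atg13 and atg17 in WT total mRNA, and none in the mutant.

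Counted over the complex, 3 of the 4 members rose on WT polysomes, where 8.57% of all genes tested rose. Their median log2 change was 1.07, against -0.01 over all genes. In mutant polysomes 0 of 4 members passed in either direction, where 6.99% of genes did, and the median of the members was 0.31 against 0 over all genes. In WT total mRNA 2 of 4 members rose, where 6% of genes did, with a median of 0.89. In mutant total mRNA 0 of 4 members passed, where 2.87% of genes did in either direction, with a median of 0.44. At an unadjusted edgeR p under 0.05, atg17 was among 1494 genes in mutant polysomes, and atg13 and atg17 among 1121 genes in mutant total mRNA.

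These calls rest on 2 libraries per group. With any 1 of the 4 WT polysome libraries left out, atg17 kept its call (adjusted p 0.0194 to 0.0444), atg1 lost it (0.0557 to 0.0982), and atg13 lost it without replicate 1 of 0 h or replicate 2 of 6 h (0.0659 and 0.0648). In WT total mRNA, leaving out either 0 h library or replicate 1 of 6 h ended both calls (adjusted p 0.0768 to 0.165), while leaving out replicate 2 of 6 h kept them. In the mutant, leaving out replicate 2 of 6 h of the fraction tested brought calls for atg17 in polysomes (adjusted p = 0.0346) and for atg13 and atg17 in total mRNA (0.0285 and 0.00709).

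At 0 h the strains did not differ detectably in any member. The log2 difference of eIF2α.S52A from WT cells ranged from -0.19 (atg13) to 0.14 (atg17) in polysomes and from -0.13 (atg1) to 0.04 (atg17) in total mRNA. None of these passed, with adjusted p of 0.848 or higher, where 0% of genes were called in polysomes (550 at an unadjusted p under 0.05, 30 with DESeq2) and 0.0162% in total mRNA. The 95% intervals reached no further than -0.77 and 0.88 in polysomes, so smaller differences could not be seen.

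At 6 h all 4 members were lower on polysomes of the mutant, by amounts that missed the threshold in the edgeR model without a replicate block. The log2 differences were -0.79 ± 0.21 for atg1 (adjusted p = 0.0908), -1.01 ± 0.25 for atg13 (adjusted p = 0.0767), -0.96 ± 0.33 for atg17 (adjusted p = 0.149) and -0.40 ± 0.25 for atg11 (adjusted p = 0.422). For every member both mutant libraries lay below both WT libraries, but how many of all genes were separated in this way was not counted. At an unadjusted edgeR p under 0.05 there were 1178 genes in either direction, atg1, atg13 and atg17 among them. The number called was 0 of 4, where 0.924% of genes were called in either direction, and the median of the members was -0.88 against -0.0009 over all genes. With the replicate block atg1 and atg13 were called lower (adjusted p = 0.0179 and 0.0417), and DESeq2 called the same pair (0.0297 and 0.0147). The 6 h libraries compared here are also those of the polysome changes above.

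The corresponding differences in total mRNA at 6 h were smaller, from -0.60 ± 0.21 for atg1 (adjusted p = 0.269) to -0.29 ± 0.25 for atg11 (adjusted p = 0.687), with -0.40 ± 0.24 for atg13 and -0.48 ± 0.33 for atg17 between them. None was called, where 0.519% of genes were. Without both replicate 2 libraries of the mutant at 6 h, the total mRNA difference was -0.0008 for atg17, -0.06 for atg13 and -0.37 for atg1, while without replicate 1 of mutant total mRNA at 6 h it was -1.21 for atg17 (adjusted p = 0.0819) and -0.86 for atg13 (adjusted p = 0.0952). The polysome differences without them were -0.62, -1.05 and -0.75, in the same order, again with none called (adjusted p 0.0868 to 0.157).

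The test of whether the polysome change itself differed between strains gave negative values for all 4 members. The change in the mutant minus that in WT was -0.72 ± 0.30 for atg1, -0.82 ± 0.37 for atg13, -1.10 ± 0.47 for atg17 and -0.51 ± 0.36 for atg11. None passed (edgeR, adjusted p 0.848 to 0.874), and 0% of the 6170 genes did, with 23 called by DESeq2. The unadjusted p was under 0.05 for 345 genes, atg1, atg13 and atg17 among them. The sign was negative in both experiments for every member: the differences in experiments 1 and 2 were -0.70 and -0.74 for atg1, -0.19 and -0.84 for atg11, -0.85 and -0.79 for atg13, and -0.75 and -1.54 for atg17. The share of all genes with a negative sign in both experiments was not counted. In total mRNA the differences of the changes were -0.24 to -0.52 (adjusted p = 0.999 for each), where 0% of genes were called (146 at an unadjusted p under 0.05, 1 with DESeq2). These depended on the mutant's 6 h libraries: without replicate 2 of mutant total mRNA at 6 h the difference was -0.04 for atg17 and -0.08 for atg13, and without replicate 1 it was -1.25 and -0.88 (adjusted p = 0.556 for both). For atg11 it ranged from -0.46 to -0.053 with 1 library left out. The polysome changes of atg1, atg13 and atg17 passed the threshold in WT and not in the mutant, but were not shown to differ between strains.

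The members differed in their polysome level relative to their total mRNA level, lowest for atg13 and highest for atg17. Both levels were scaled by TMM, so their ratio is relative to other mRNAs and is not the share of an mRNA on polysomes. The ratio of polysome to total CPM, in the 8 pairs of libraries of the same condition and experiment, was 0.211 to 0.539 for atg13, 0.526 to 0.815 for atg11, 0.595 to 0.853 for atg1 and 0.860 to 1.35 for atg17. The median ratio over all genes was 0.955 to 0.984. The ratio of atg13 lay at the 4.89th to 15.6th percentile of all genes, whereas atg17 lay at the 44.4th to 72.1st percentile. Ranges of atg13 and atg17 did not overlap.

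**Figure D3:**
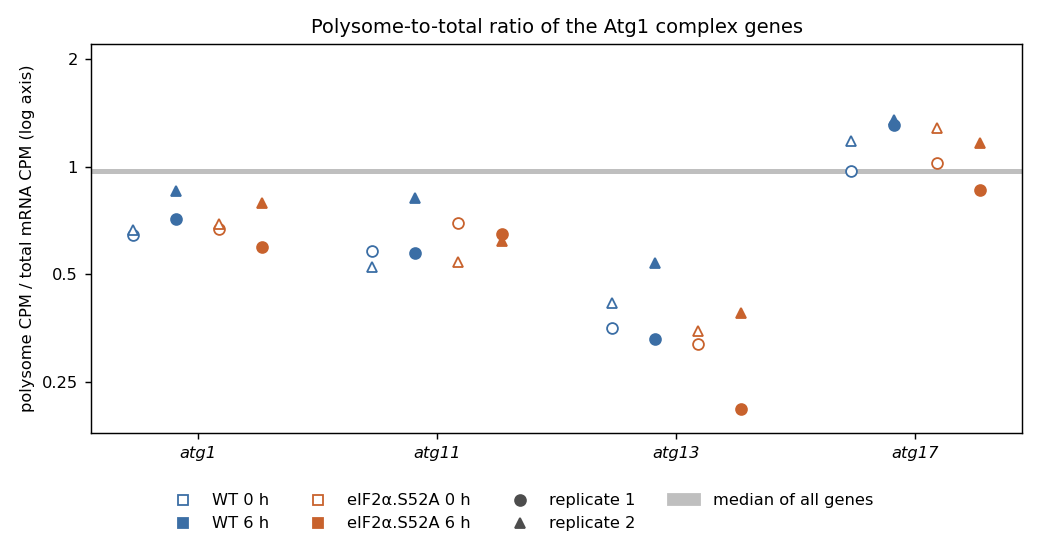
Ratio of polysome CPM to total mRNA CPM (log axis) of each member in the 8 pairs of libraries, in WT (blue) and eIF2α.S52A cells (orange) at 0 h (open) and 6 h (filled), for replicate 1 (circles) and replicate 2 (triangles). The grey band spans the median of all genes in the 8 pairs. atg13 lies at 0.211 to 0.539, below the band in every pair, and atg17 at 0.860 to 1.35, around and above it.

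Tested as polysomes against total mRNA within a condition, atg13 was lower on polysomes in all 4 conditions, by -1.38 ± 0.25 (WT 0 h), -1.25 ± 0.25 (WT 6 h), -1.59 ± 0.26 (S52A 0 h) and -1.85 ± 0.26 (S52A 6 h) on the log2 scale. Its adjusted p was 0.00134, 0.00231, 0.000478 and 0.000171 in the same order, and no alternative or left-out library ended any of these calls. atg11 was lower on polysomes at 0 h in WT cells (-0.85 ± 0.25, adjusted p = 0.0196) and in the mutant (-0.69 ± 0.25, adjusted p = 0.0429), and its values at 6 h were -0.55 ± 0.25 and -0.65 ± 0.25 (adjusted p = 0.106 and 0.0526, with the replicate block 0.0391 and 0.0123). atg1 was lower in WT cells at 0 h (-0.61 ± 0.21, adjusted p = 0.0388) and in the mutant at 6 h (-0.56 ± 0.21, adjusted p = 0.0488), with -0.37 ± 0.21 in WT cells at 6 h (adjusted p = 0.188). In the mutant at 0 h atg1 stood at -0.56 ± 0.22 (adjusted p = 0.0516, with the replicate block 0.00741). atg17 differed in no condition (-0.07 to 0.41, adjusted p 0.361 to 0.879), and with scaling by library size alone, which puts the median of all genes at -0.95 to -1.62 here, its value was below 0 in all 4.

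In these 4 tests 3 of 4 members were lower on polysomes in WT cells at 0 h (18.4% of genes), 1 of 4 in WT cells at 6 h (18.3%), 2 of 4 in the mutant at 0 h (22.4%) and 2 of 4 in the mutant at 6 h (21%). The calls of atg1 and atg11 were close to the threshold. In WT cells at 0 h, leaving out any library but replicate 2 of total mRNA ended the call of atg1 (adjusted p 0.0623 to 0.239), and leaving out replicate 1 of total mRNA or replicate 2 of polysomes ended that of atg11 (adjusted p 0.152 and 0.156). In the mutant at 0 h the call of atg11 was lost without either total mRNA library or replicate 2 of polysomes (0.0793 to 0.254), and at 6 h that of atg1 was lost without replicate 1 of total mRNA or either polysome library (0.112 to 0.350).

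Translation efficiency (TE), tested as the change of polysome counts over and above that of total mRNA, passed the test in no member. In WT cells the TE change was 0.25 ± 0.30 for atg1, 0.30 ± 0.35 for atg11, 0.13 ± 0.35 for atg13 and 0.30 ± 0.47 for atg17. In the mutant it was -0.002 ± 0.30, 0.03 ± 0.35, -0.26 ± 0.36 and -0.28 ± 0.47 in the same order, and every adjusted p rounded to 1. The number of members called was 0 of 4 in both strains, where 0.0162% of genes were called in WT cells and 0% in the mutant, with 156 and 99 genes at an unadjusted p under 0.05 and 6 and 3 called by DESeq2. The 95% intervals were wide, such as -0.40 to 0.89 for atg1 and -0.72 to 1.32 for atg17 in WT cells, so a moderate change of TE could not be seen with 2 replicates. The difference in TE change between strains was -0.25 to -0.58 and was negative in both experiments for every member, with -0.32 and -0.15 for atg1, -0.079 and -0.44 for atg11, -0.51 and -0.21 for atg13, and -0.68 and -0.33 for atg17 in experiments 1 and 2. How many of all genes were negative in both was not counted. With 1 library left out, the difference reached values above 0 for every member (0.019 for atg1, 0.017 for atg11, 0.059 for atg13 and 0.15 for atg17). The number called was 0 of 4, where 0% of genes were (38 at an unadjusted p under 0.05, 1 with DESeq2). The WT polysome rises of atg1, atg13 and atg17 (0.93, 1.22 and 2.08) stood beside total mRNA changes of 0.68, 1.10 and 1.78. Of these total mRNA changes, that of atg1 missed the threshold.

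Autophagy genes outside the complex were compared as a list. It holds 26 genes, the remaining atg genes in the table with ctl1, fsc1, pik3, ppk19, nbr1 and the vacuolar proteases isp6 and psp3, and all 26 were tested. On WT polysomes 13 of them rose, where 8.57% of all genes rose, and 0 fell, with a median log2 change of 0.83. The 3 with the largest called rises were atg8 (1.44 ± 0.31, adjusted p = 0.0116), whose product is coupled to lipid on the growing membrane, atg14 (1.40 ± 0.33, adjusted p = 0.0145), a subunit of the phosphatidylinositol 3-kinase of autophagy, and atg2 (1.36 ± 0.24, adjusted p = 0.00542), a lipid transfer protein. The count of 13 dropped to between 1 and 4 with any 1 of the WT polysome libraries left out, and the median stayed between 0.80 and 0.91.

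In the mutant 1 of the 26, atg22, a vacuolar membrane protein, rose on polysomes (1.14 ± 0.25, adjusted p = 0.0251), where 3.4% of all genes rose, and the median was 0.52. Without both replicate 2 libraries of the mutant at 6 h, more of the 26 rose on mutant polysomes, and so did more of all genes. Of the genes named above, atg8 had 0.21 ± 0.31, atg14 0.43 ± 0.33 and atg2 0.63 ± 0.25 in mutant polysomes (adjusted p = 0.733, 0.469 and 0.154). In total mRNA 7 of 26 rose in WT cells (6% of all genes) and 2 in the mutant (2.12% of all genes), with medians of 0.68 and 0.52. Without both replicate 2 libraries more of the 26 and more of all genes rose in mutant total mRNA. The 7 WT calls were lost with any 1 of the WT total mRNA libraries left out. In polysomes at 6 h 25 of the 26 had a lower fitted value in the mutant than in WT cells. Their median was -0.52, against -0.0009 over all genes, and 0 passed the test. The share of all genes with a lower value was not counted. The lowest of the 26 was atg8 (-1.17 ± 0.31, adjusted p = 0.0885). The median difference of the changes between strains was -0.23 for these genes and -0.77 for the 4 members, with 0 calls in either. Such values were not particular to the members (-0.51 to -1.10): atg8 stood at -1.23 ± 0.44 and atg14 at -0.97 ± 0.46, while 6 of the 26 lay above 0.

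**Figure D4:**
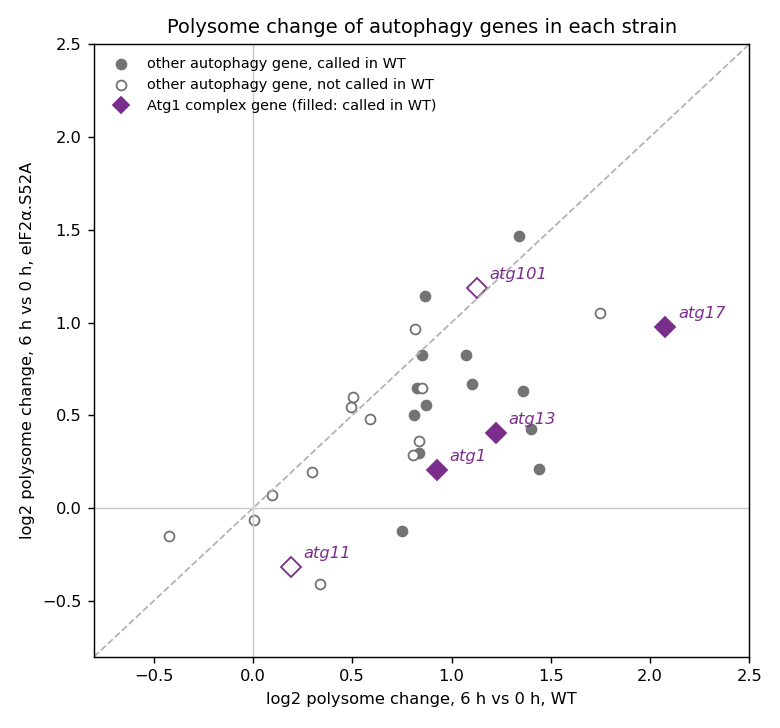
Log2 polysome change from 0 h to 6 h in WT cells (x axis) and eIF2α.S52A cells (y axis) for the 4 members and atg101 (diamonds, filled where called in WT) and the 26 other autophagy genes (circles, filled where called in WT), with a dashed line at equal change. atg1, atg11, atg13 and atg17 lie below the line, with strain differences of -0.51 to -1.10 that did not pass the adjusted test. atg101 lies near the line, with a strain difference of 0.06 ± 0.84.

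Kinases of nutrient sensing, and their regulators, were compared as a further list. It holds 31 genes, among them those for the TOR complexes, the GTPases and complexes that regulate them, AMP-activated kinase and the eIF2 kinases. The kinase genes gad8, psk1, sck1, sck2 and ssp1 are also in it. Of the 31, 4 rose on WT polysomes, where 8.57% of all genes rose, and 0 fell, with a median of 0.40. The 3 with the largest called rises were hri1, an eIF2 kinase (2.51 ± 0.47, adjusted p = 0.00659), toc1, a subunit of TORC1 (1.034 ± 0.17, adjusted p = 0.00377), and sea3, of the SEA complex that regulates TORC1 (0.70 ± 0.16, adjusted p = 0.0131). In the mutant hri1 alone of the 31 passed, at 3.07 ± 0.50 (adjusted p = 0.00688), where 3.4% of all genes rose. In total mRNA hri1 was again the 1 gene called of the 31 in WT cells (2.30 ± 0.46, adjusted p = 0.0135) and in the mutant (2.63 ± 0.47, adjusted p = 0.0179). Ribosomal protein genes went the other way: 116 of 150 fell on WT polysomes and 81 on mutant polysomes, 115 fell in WT total mRNA, and 0 passed in mutant total mRNA, where the median was -0.51. Over all genes 8.9%, 3.58%, 6.01% and 0.746% fell in the same comparisons. Without both replicate 2 libraries of the mutant at 6 h, more of all genes fell in both fractions of the mutant, and so did more of the 150. With 1 library left out the counts ranged from 10 to 78 in WT polysomes, 3 to 124 in mutant polysomes, 0 to 8 in WT total mRNA and 0 to 2 in mutant total mRNA.

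The patterns of the members over the 16 libraries, which mix total mRNA and polysomes, were only partly alike. Pearson's r of log2 CPM, a description over libraries that share fraction, strain and time, was 0.90 for atg1 with atg13 and -0.09 for atg11 with atg17. Over the 8 total mRNA libraries r was 0.98 for atg13 with atg17, 0.90 for atg1 with atg13, 0.84 for atg1 with atg17 and -0.06 for atg11 with atg13. The same pairs had 0.89, 0.95, 0.87 and 0.28 over the 8 polysome libraries, in the same order. The genes most like each member were picked among 5120 genes averaging 2 or more in log2 CPM. For atg1 they were mug185 (r = 0.95), a predicted co-chaperone, gad8 (0.94), the AGC kinase downstream of TORC2, and zwf2 (0.93), a predicted glucose-6-phosphate dehydrogenase. For atg13 they were the nucleoporin gene nup131 (0.98), the predicted mechanosensitive channel gene msy2 (0.98) and SPCC895.08c (0.98), a gene specific to Schizosaccharomyces. For atg17 they were hac1 (0.98), SPCC736.13 (0.98) and SPCPB1C11.03 (0.97), annotated as a 2-hydroxyacyl-CoA lyase, a short chain dehydrogenase and a cysteine transporter, all predicted. For atg11 they were SPBC1604.12 (0.95), pst2 (0.94), a histone deacetylase complex subunit, and cdc11 (0.94), a scaffold of the septation initiation network.

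Genes on the opposite strand overlap the members in the ASM294v3 annotation, and reads were counted by strand. Noncoding RNAs annotated antisense to atg1 (SPNCRNA.7060, over 7.68% of its length), atg11 (SPNCRNA.3176, 6.41%) and atg13 (SPNCRNA.4174, 25.2%) are not analysed here. rio1, which encodes a protein kinase of ribosome maturation, overlaps 1276 nucleotides or 46.7% of atg17. Its values went the other way, with -1.21 ± 0.45 in WT polysomes (adjusted p = 0.0853) and -1.20 ± 0.45 in WT total mRNA (adjusted p = 0.0976). bud22 overlaps atg13 by 30 nucleotides and fell in WT polysomes (-0.92 ± 0.26, adjusted p = 0.0322) and in WT total mRNA (-0.88 ± 0.26, adjusted p = 0.0478). thg1 overlaps atg1 by 54 nucleotides and was at -0.84 ± 0.36 in WT polysomes (adjusted p = 0.131). SPNCRNA.833 covers all of atg101 and was at -0.77 ± 0.38 there (adjusted p = 0.181). In the mutant none of these 4 genes passed, the value of rio1 in polysomes being -0.38 ± 0.45 (adjusted p = 0.653). Whether reads of these partners reach the counts of the members was not tested.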

How the data were processed

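Poly(A) RNA of total and polysomal extracts had been made into stranded libraries and sequenced as paired 100-nucleotide reads. Per the labels and the study's methods, the authors aligned them to ASM294v2 with STAR, indexed them with SAMtools and assigned them to genes by strand with QoRTs (versions: not given in the sources used here). Deposited whole-number counts per gene were used as the authors made them. Their DESeq2-normalized columns were not used.

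Counts were filtered by filterByExpr, scaled by TMM (factors 0.434 to 1.69) and tested with edgeR 4.0.16 (limma 3.58.1, R 4.3.3) in 1 quasi-likelihood model of the 8 groups, tested on simulated data. Benjamini-Hochberg adjustment ran over 6170 genes in each of 17 comparisons. TE was the interaction term between fraction and time. Log2 CPM used a prior count of 1. Alternatives were DESeq2 1.42.0, its size factors, library size alone, no filter, a replicate block, only the libraries compared, and each library left out. A group left with 1 library is then assumed to vary like the others.

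The labels tie replicate numbers to 2 experiments, so the numbers pair the libraries. Deviations of same-numbered libraries correlated at -0.0898 to 0.578 (median 0.264, over 0.1 in 22 of 28 pairs of groups). Nothing says whether the experiments were separate cultures, so p-values measure the spread between these libraries.

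Members and lists were chosen with earlier results of these data known. The genes named were the 4 members, atg101, up to 3 genes of each other list with the largest change in either direction called in WT polysomes, the 3 genes most like each member, and genes overlapping them. atg22 and other single genes of small counts were named after their values were seen. Lists were other autophagy genes, nutrient-sensing kinases with their regulators, and cytosolic ribosomal protein genes. Of the table's identifiers, 6846 matched ASM294v3, which served for lengths, leaders and overlaps only.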

Additional observations from a re-analysis of the deposited data

Results flagged for a closer look

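The TE change of atg17 had opposite signs in the strains. It was 0.42 and 0.20 in the 2 experiments with WT cells and -0.25 and -0.14 in those with eIF2α.S52A cells, a mean difference of -0.51 (-0.5051) on the log2 scale. The test of this difference in edgeR gave -0.58 ± 0.67 (adjusted p = 1), and the difference did not pass the test.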

How the results depend on the processing

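Over the alternatives run, 716 of 824 values of the members (68 results) kept their direction and their side of the threshold, 32 lost a call, 29 gained one and 47 changed sign. The cause of these changes was not tested, except that left-out libraries leave fewer samples and that library size alone, without TMM, puts the median of all genes at 0.50 and 0.59 in the polysome changes of WT and mutant cells. With it, the changed signs were atg11 at 0.30 in mutant polysomes and 0.12 in WT total mRNA; TE in the mutant at 0.46, 0.19 and 0.19 for atg1, atg13 and atg17; the mutant against WT at 0 h at -0.33 (atg11) and -0.28 (atg17) in polysomes and -0.0082 (atg13) in total mRNA; and atg17 on polysomes against total mRNA at -1.06 and -0.49 in WT cells at 0 h and 6 h and -1.36 in the mutant at 0 h. The mutant TE change of atg1, near 0, turned to 0.0017 with no filter, 0.010 with the replicate block and 0.036 with only the libraries compared.

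The number of members called became 1 with DESeq2 and 1 with the replicate block in mutant total mRNA (from 0), 2 with DESeq2, 2 with the block and 2 with library size alone for the mutant against WT in polysomes at 6 h (from 0), and 3 with library size alone in mutant polysomes (from 0). Without both mutant 6 h libraries of replicate 2 it was 1 in mutant polysomes and 2 in mutant total mRNA. For polysomes against total mRNA it was 3 (library size alone) or 2 (block) in WT cells at 6 h. In the mutant at 0 h it was 1 with DESeq2, 1 with its size factors and 4 with library size alone. In the mutant at 6 h it was 4 with library size alone and 1 with each of DESeq2, its size factors, no filter, only the libraries compared, and without both of those libraries. With 1 library left out the number ranged from 1 to 2 in WT polysomes, 0 to 1 in mutant polysomes, 0 to 2 in WT and in mutant total mRNA, 1 to 3 and 1 to 1 for polysomes against total mRNA in WT cells at 0 h and 6 h, and 1 to 2 in the mutant at each time. The replicate block changed no other call than those named here and in the report. Library size alone called 1902 of all 6170 genes higher in mutant polysomes. For polysomes against total mRNA it called 3335 genes lower in WT cells at 6 h. In the mutant it called 4668 lower at 0 h and 3819 at 6 h.

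With 1 library left out, signs changed within -0.056 to 0.49 for atg11 in WT polysomes, -0.30 to 0.11 in WT total mRNA, and -0.060 to 0.43 for atg1 in mutant total mRNA. For TE they did so in the mutant for atg1 (-0.22 to 0.27), atg11 (-0.21 to 0.32), atg13 (-0.60 to 0.19) and atg17 (-0.76 to 0.45), and in WT cells for atg13 (-0.058 to 0.35). For the strain difference in TE change the ranges were -0.47 to 0.019 (atg1), -0.56 to 0.017 (atg11), -0.74 to 0.059 (atg13) and -1.06 to 0.15 (atg17). For the strains at 0 h they were -0.20 to 0.059 (atg1), -0.18 to 0.40 (atg11) and -0.048 to 0.30 (atg17) in polysomes, and -0.28 to 0.037 (atg1), -0.24 to 0.16 (atg11) and -0.11 to 0.15 (atg13) in total mRNA. For atg17 on polysomes against total mRNA they were -0.014 to 0.21 in WT cells at 0 h and -0.55 to 0.66 in the mutant at 6 h. None of these values was called with all libraries.

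Over all genes, calls in WT polysomes were 1078 (529 higher, 549 lower), 1691 with the block, 2053 with library size alone (1840 higher, 213 lower) and 245 to 514 with 1 library left out. In mutant polysomes 431 calls became 864 with DESeq2, 845 with the block, 1969 with library size alone, 15 with only the libraries compared, 37 to 859 with 1 library left out, and 1129 without both mutant 6 h libraries of replicate 2. In WT total mRNA 741 became 1245 with DESeq2, 1374 with the block, 1677 with only the libraries compared and 14 to 169 with 1 left out. In mutant total mRNA 177 became 479, 462, 7 and 0 to 301 in the same order, and 788 without both of those libraries. For the mutant against WT in polysomes at 6 h, 57 became 380 with DESeq2, 229 with the block, 255 with library size alone, 0 with only the libraries compared, and 11 to 267 with 1 left out. For total mRNA at 6 h, 32 became 177 with DESeq2, 98 with the block, 0 with only the libraries compared, 0 without both of those libraries, and 0 to 20 with 1 left out. Of the other autophagy genes, the 13 calls in WT polysomes became 21 with library size alone, and the 7 in WT total mRNA became 13 with the block, 15 with library size alone and 19 with only the libraries compared.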
